A study of Rattus norvegicus with 20 samples.

Results

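The ubiquitin enzyme genes described here carry symbols of 4 families: Ube2, Trim, Fbx and Usp. They were chosen by name, as symbols in the count table that begin with Ube2 and a letter, with Trim or Usp and a digit, or with Fbxo, Fbxl or Fbxw and a digit. Of 178 symbols that match, Trim63 and Fbxo32, both muscle atrophy ligases, and a pseudogene were left out. That left 175 members among 17337 symbols, made up of 29 Ube2, 48 Trim, 53 Fbx and 45 Usp genes. Of these, 118 had enough counts to be tested (24 Ube2, 24 Trim, 36 Fbx and 34 Usp), 47 had counts too low for a test, and 10 had no count in any library. Usp6nl, a GTPase-activating protein, and Usp39, a splicing factor without protease activity, match by symbol only and were kept.

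Type II alveolar epithelial cells of Sprague-Dawley rats were cultured for 4 days on silastic membranes coated with fibronectin, where they take on features of type I cells, the thin cells that line most of the gas exchange surface. Gene expression was then measured by QuantSeq, which reads 1 fragment near the 3' end of each polyadenylated transcript, in 5 libraries for each of 4 groups. The unstretched group, NS, received 0.01% DMSO for 24 h, and the stretched group, S, received it for 18 h before 6 h of biaxial cyclic stretch with a 25% change in area at 15 cycles per min. The groups NS_PI and S_PI received 1 µM GSK2606414, an inhibitor of the endoplasmic reticulum stress kinase PERK, in place of the vehicle, NS_PI for 24 h unstretched by the treatment protocol and S_PI for 18 h before the same stretch; no DMSO content is recorded for them. RNA of 4 monolayers from the same animal was combined for each library. Titles number the animals, and each animal gave all 4 groups.

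Ubiquitin is attached to proteins by a relay of enzymes. An E1 enzyme activates it, an E2 enzyme of the Ube2 family carries it, and an E3 ligase picks the protein that receives it. Most TRIM proteins are E3 ligases with a RING domain, many of them active in antiviral defence or in chromatin, while F-box proteins are the parts of cullin ligases that bind the target. Proteases of the USP family take ubiquitin off again. In lung epithelium the system is known for the turnover of junction proteins, sodium channels and misfolded proteins.

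Libraries held 999209 to 3131541 counts, and 3 counts, taken as the detection floor, equalled 1.07 to 3.05 CPM (a gene's counts relative to its library's total after TMM scaling), for counting error only. Since QuantSeq gives 1 fragment per transcript, CPM was compared between genes without a correction for length. The type I markers Pdpn and Ager averaged 2000 and 510 CPM in NS, but Aqp5 only 4.57 CPM. Summed fibroblast and smooth muscle markers reached 9168 to 37820 CPM and macrophage and leukocyte markers 1776 to 10910 CPM in the NS libraries, and the endothelial markers Cdh5 and Cldn5 were at 0 in every library. Single genes carried these sums: Fn1 averaged 20800 CPM of the mean fibroblast sum of 26110 in NS, where Col1a2 and Lum averaged 1.38 and 1.69. Lyz2, also a type II marker, averaged 4600 CPM of the macrophage sum of 6595, where Ptprc averaged 98.3. In bulk samples fewer cells of a type and less RNA per cell cannot be told apart. In S vs NS, where 12.5% of all tested genes were called higher and 12.4% lower, 6 of 15 tested macrophage markers rose (summed 2332 to 14610 CPM in S, 1740 to 10390 in NS_PI, 2936 to 13710 in S_PI; Marco at 0 in NS), 1 of 9 tested fibroblast markers rose (summed 17950 to 40440 CPM in S), and 4 of 13 type I markers fell while 1 rose. In S_PI vs NS_PI, where 15.2% were called higher and 15.3% lower, 8 of the 15 macrophage markers rose, 3 of the 9 fibroblast markers rose and 1 fell, and 7 of the 13 type I markers fell while 2 rose. The part of these values in the results below was not tested.

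The promoters of 4 Trim genes are shown first because these genes fell with stretch and because 3 of them, Trim6, Trim34 and Trim5, follow one another on chromosome 1 with no other protein-coding gene between them. Each is the RefSeq sequence of the rat build GRCr8, another build than the rn6 of the counts, from 250 bases before to 50 bases after the gene start. Trim6 and Trim34 lie on the plus strand (chr1:168095369-168095668 and chr1:168118793-168119092), Trim5 and Trim26 on the minus strand (chr1:168149214-168149513 and chr20:1736262-1736561). Capitals mark GAAANNGAAA, the core of the interferon-stimulated response element, searched on both strands; the letters below hold it on the opposite strand, as a pair of overlapping matches each.
Trim6: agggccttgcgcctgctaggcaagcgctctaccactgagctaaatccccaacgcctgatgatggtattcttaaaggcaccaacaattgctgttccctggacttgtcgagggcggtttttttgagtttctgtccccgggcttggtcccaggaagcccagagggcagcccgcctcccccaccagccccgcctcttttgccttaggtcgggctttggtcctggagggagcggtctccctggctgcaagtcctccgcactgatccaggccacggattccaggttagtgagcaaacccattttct
Trim34: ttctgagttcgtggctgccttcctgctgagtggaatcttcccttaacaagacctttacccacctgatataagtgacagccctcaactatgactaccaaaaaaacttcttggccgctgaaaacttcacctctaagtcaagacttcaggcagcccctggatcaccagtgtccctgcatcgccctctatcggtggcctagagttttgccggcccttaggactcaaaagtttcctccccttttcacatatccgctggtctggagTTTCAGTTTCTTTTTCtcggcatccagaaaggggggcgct
Trim5: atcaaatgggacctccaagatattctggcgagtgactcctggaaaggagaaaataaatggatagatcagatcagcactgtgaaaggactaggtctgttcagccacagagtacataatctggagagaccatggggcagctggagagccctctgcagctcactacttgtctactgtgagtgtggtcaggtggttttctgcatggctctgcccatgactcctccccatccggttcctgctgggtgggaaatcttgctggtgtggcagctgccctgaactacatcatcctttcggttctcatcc
Trim26: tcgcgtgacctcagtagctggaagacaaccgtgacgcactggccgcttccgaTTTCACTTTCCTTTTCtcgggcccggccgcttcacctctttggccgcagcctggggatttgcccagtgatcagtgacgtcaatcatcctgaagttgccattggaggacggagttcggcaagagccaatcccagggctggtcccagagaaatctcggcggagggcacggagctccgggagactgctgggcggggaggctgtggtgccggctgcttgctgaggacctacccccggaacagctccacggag

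The motif, chosen after the values had been seen, was found in the promoters of Trim34 and Trim26 but not in these windows of Trim6 and Trim5. It was present in 1312 of 33469 rat promoters (3.92%) and in 7 of 143 promoters of the members (4.9%), which cover 142 of the 175 genes. The other members with a match were Fbxo27, Trim21, Ube2d3, Fbxo7 and Trim40. Of these, Fbxo27 fell and Ube2d3 rose with stretch, and Trim21 had too few counts for a test. A match is a description of the letters only.

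Cyclic stretch moved 40 of the 118 tested members, or 33.9%, where 24.9% of all 8320 tested genes were called in the same comparison of S with NS (edgeR quasi-likelihood test, Benjamini-Hochberg adjusted p below 0.05). Of these, 22 rose and 18 fell, against 12.5% of all genes called higher and 12.4% called lower. The median log2 fold change was 0.10 over the members and -0.01 over all genes. By family, 7 Ube2 genes rose and 0 fell, 5 Trim genes rose and 9 fell, 6 Fbx genes rose and 6 fell, and 4 Usp genes rose and 3 fell; the difference between families was not tested. Without the replicate block 2 Ube2 genes rose and 0 fell, and 3 Trim genes rose and 3 fell. Over all genes 419 then rose and 399 fell, in place of 1044 and 1031. In all, 12 of the called members changed at least 2-fold, and 10 of those called in S_PI vs NS_PI. The matching numbers over all tested genes were not counted, so no excess can be read from these. The split depended on the scale: with upper-quartile scaling 18 rose and 21 fell, and with library size alone, which moved the median of all genes to -0.12, 16 rose and 22 fell. Over all genes 854 rose and 1233 fell with upper-quartile scaling, and 722 rose and 1425 fell with library size alone. Without animal 2, 25 members were called and 9 of them were lower. Without animal 3 or without animal 5, 11 were lower. Over all genes 665, 656 and 737 were called lower without animals 2, 3 and 5, in place of 1031.

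With the inhibitor present in both arms, stretch moved 46 members (39%), of which 29 rose and 17 fell, where 30.5% of all genes were called, 15.2% higher and 15.3% lower. Here 5 Ube2 genes rose and 0 fell, 4 Trim genes rose and 7 fell, 7 Fbx genes rose and 7 fell, and 13 Usp genes rose and 3 fell. Of the members called higher, 18 were the same genes in both stretch comparisons, 81.8% of the 22 in S vs NS and 62.1% of the 29 in S_PI vs NS_PI. Of those called lower, 13 were shared, 72.2% and 76.5% of the 2 lists, and 0 members were called in opposite directions. The matching shares over all tested genes were not computed, so this overlap cannot be read as particular to the members. The comparisons share no library, but the same 5 animals gave both. The split was 25 higher and 24 lower with upper-quartile scaling and 23 and 25 with library size alone. Over all genes it was 1030 higher and 1612 lower, and 957 and 1677. Without animal 2, 10 members were lower, and without animal 3, 11. Over all genes 1035 and 923 were then lower, in place of 1271.

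**Figure D1:**
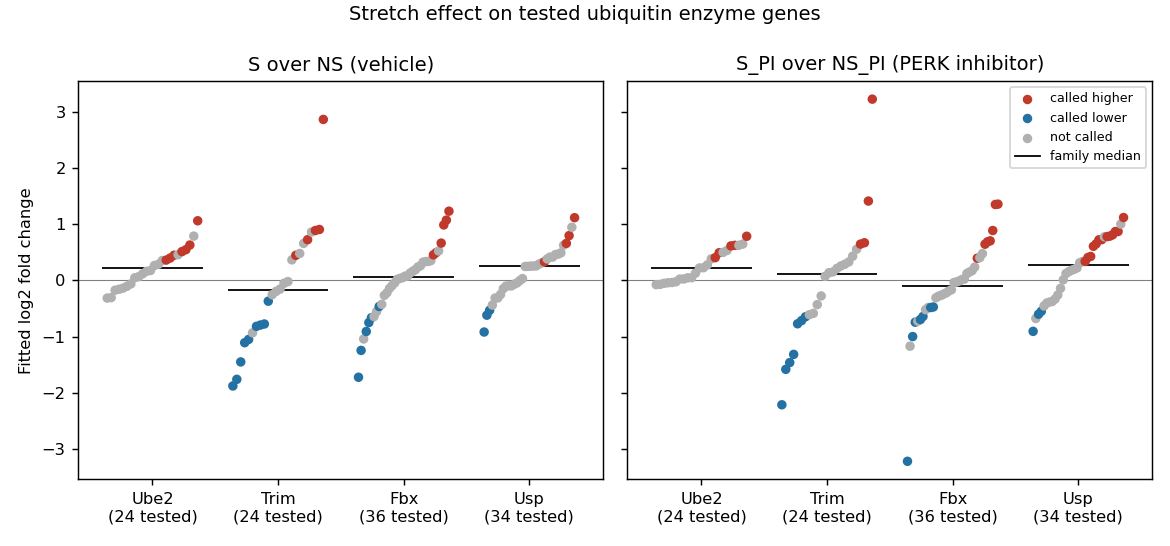
Fitted log2 fold changes of the tested members by family, ordered by value within each family, for stretch without (left) and with (right) the inhibitor; red and blue points were called higher and lower, and black lines are family medians. In S vs NS, 7 Ube2 genes were called higher and 0 lower, while 9 Trim genes were called lower and 5 higher.

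**Figure D2:**
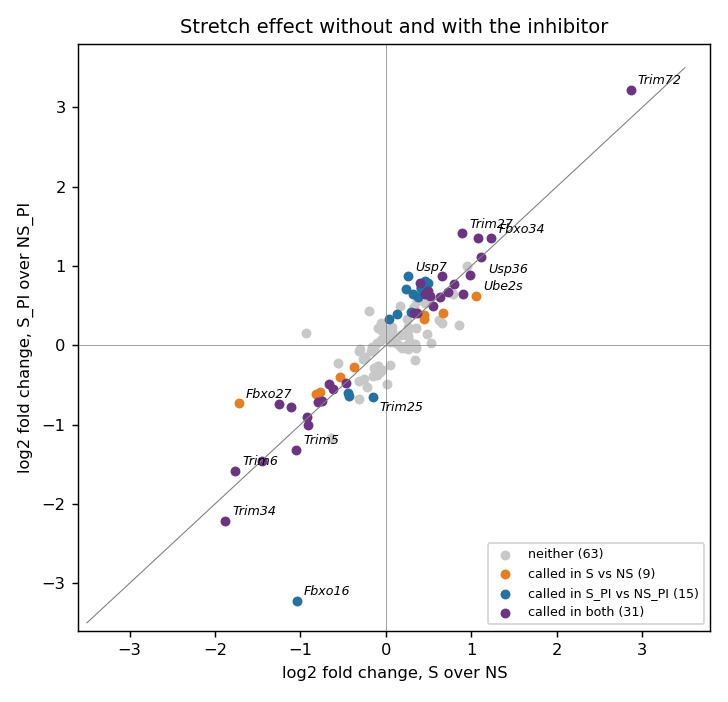
Log2 fold change of each tested member in S vs NS (horizontal) and S_PI vs NS_PI (vertical), with the line of equal change; colours give the comparison in which a gene was called. The 31 genes called in both lie in the lower left or upper right, with Trim72 highest at 2.87 and 3.23 and Trim34 low at -1.88 and -2.21. Trim72 passed the filter on low counts only through its stretched libraries.

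The E2 conjugating enzymes were the most abundant family, with 3820 to 4200 CPM summed over 29 genes in the NS libraries and 4470 to 5282 in S. Ube2d3, a broadly acting E2 that works with many RING ligases, was the most abundant member, at 714, 875, 783, 719.9 and 822 CPM in animals 1 to 5 in NS and 1183, 1183, 1230.0, 1050.0 and 946 in S. Every S library was above every NS library. Its level in NS_PI was 671, 687, 729, 687 and 631 CPM and in S_PI 968, 1198, 1080.0, 1012 and 1001, again without overlap. The rise was 1.43-fold (log2 fold change 0.51 ± 0.11, edgeR adjusted p = 0.00224) and, with inhibitor, 1.54-fold (log2 fold change 0.62 ± 0.11, edgeR adjusted p = 0.000284). Its close relative Ube2d2 also rose (0.36 ± 0.12, edgeR adjusted p = 0.025; not called without animal 2, 3 or 5, at adjusted p = 0.0897, 0.0721 and 0.0622, nor with library size alone, at 0.10), and the close similarity of the D class genes leaves the split of reads between them uncertain.

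Endoplasmic reticulum-associated degradation marks misfolded secretory proteins. Of its E2 enzymes, 3 of 4 rose in S vs NS (Ube2g1, Ube2g2 and Ube2j2) and 2 of 4 with inhibitor. Of all tested genes 12.5% and 15.2% were called higher in these comparisons. Ube2j2 was close to the threshold in S vs NS (log2 fold change 0.45 ± 0.16, edgeR adjusted p = 0.0477) and was not called with inhibitor. Ube2g2, the partner of the ligase gp78, stood at 56.3, 86.8, 73.8, 76.6 and 90.6 CPM in NS and 82.5, 107, 96.4, 123 and 98.5 in S, so that the groups overlapped although each animal rose. With inhibitor the levels were 57.2, 64.6, 66.4, 63.6 and 57.2 CPM in NS_PI and 104, 119, 93.3, 117 and 101 in S_PI, where they did not overlap. The log2 fold changes were 0.40 ± 0.13 (edgeR adjusted p = 0.0253) and 0.79 ± 0.13 (adjusted p = 0.000126). The call in S vs NS was lost without animal 2, 3 or 4 (adjusted p = 0.0551, 0.0563 and 0.124). It was also lost when libraries were scaled by their upper quartile (0.0525) or by their size alone (0.0985). Ube2g1 rose from 159 ± 35.8 CPM to 250.3 ± 69.4 CPM (mean ± SD, n = 5; log2 fold change 0.63 ± 0.13, edgeR adjusted p = 0.0017) and from 158 ± 20.3 CPM to 247 ± 68.5 CPM with inhibitor (adjusted p = 0.0014). Animal 1 was lowest in all 4 groups, and its stretched libraries lay within the range of the unstretched ones in both comparisons.

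Among the E2 enzymes of the cell cycle, Ube2s, which extends ubiquitin chains for the anaphase-promoting complex, stood at 9.23, 5.92, 28.5, 28.3 and 17.4 CPM in NS and 28.7, 34.6, 34.0, 36.6 and 37.3 in S. All S libraries were above all NS libraries, and the rise was 2.09-fold (log2 fold change 1.06 ± 0.27, edgeR adjusted p = 0.00814). With inhibitor the difference was 0.63 ± 0.27 and not called (adjusted p = 0.0826). Ube2c, which starts those chains, was at 88.8 ± 53.2 CPM in NS and 113 ± 47.2 CPM in S, a difference that did not pass (log2 fold change 0.46 ± 0.23, edgeR adjusted p = 0.156; called without animal 3, adjusted p = 0.0433). With inhibitor it was also not called (0.53 ± 0.23, adjusted p = 0.0849), except without animal 1 (adjusted p = 0.0483) and when only the compared groups were fitted (adjusted p = 0.0222). Of 24 tested proliferation genes, 7 rose and 0 fell in S vs NS, where 12.5% of all genes were called higher and 12.4% lower. Their summed level was 605 to 763 CPM in NS and 714 to 1364 in S. With inhibitor 8 rose and 0 fell, where 15.2% of all genes were called higher and 15.3% lower. The part of these shifts in the Ube2s values was not tested.

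The 4 tested members listed as E2 enzymes of ubiquitin-like proteins gave no call in either stretch comparison. Ube2m, an E2 of NEDD8, differed by 0.16 ± 0.19 (adjusted p = 0.575), and by -0.03 without animal 1. With inhibitor Ube2m differed by 0.50 ± 0.19 (adjusted p = 0.0519; 0.0206 without animal 4 and 0.0492 without the filter on low counts). Ube2l6, the E2 of ISG15, differed by -0.31 ± 0.20 (adjusted p = 0.283). Ube2z, an E2 charged by the E1 Uba6, rose, with 126 to 161 CPM in NS and 169.8 to 264 in S (log2 fold change 0.55 ± 0.14, edgeR adjusted p = 0.00673), a call lost without animal 2 (adjusted p = 0.051). Ube2k, second in level and known for K48-linked chains, was not called (0.18 ± 0.13, adjusted p = 0.338). The count of Ube2 genes called higher in S vs NS was 4 instead of 7, with 1 lower, under upper-quartile scaling or library size alone, and 3 without animal 2; with inhibitor it was 8 instead of 5 without animal 1.

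**Figure D3:**
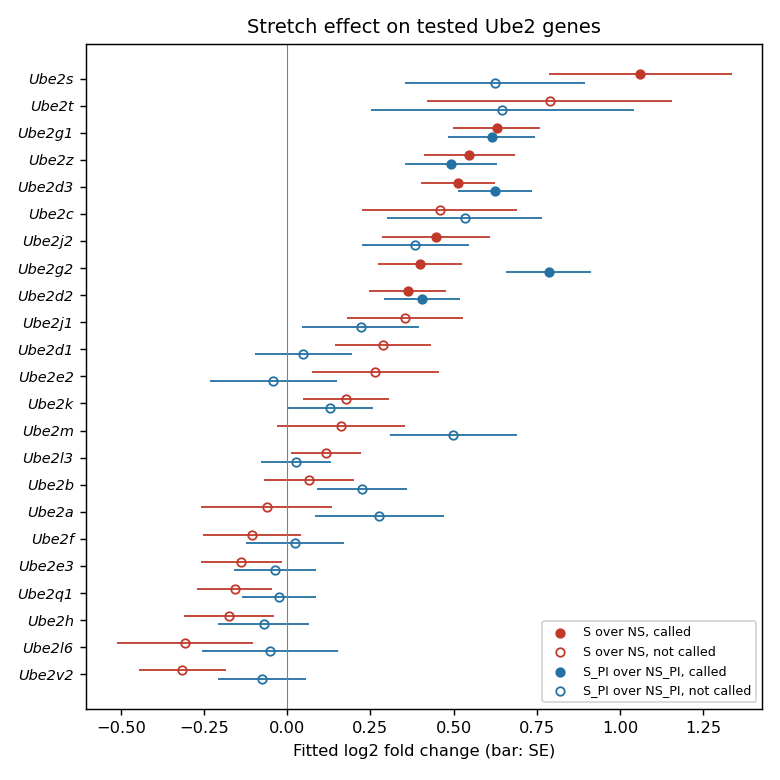
Fitted log2 fold change with its standard error for 23 of the 24 tested Ube2 genes, in S over NS (red) and S_PI over NS_PI (blue); filled points were called at an adjusted p below 0.05. Ube2s leads S over NS at 1.06 and Ube2g2 leads S_PI over NS_PI at 0.79.

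In the Trim family 58.3% of the tested genes were called in S vs NS, where 24.9% of all tested genes were. With inhibitor the shares were 45.8% and 30.5%. Without the replicate block 3 Trim genes were called higher and 3 lower in S vs NS. Over all genes 419 were then called higher and 399 lower, in place of 1044 and 1031. Trim28 (KAP1), the corepressor that silences retroelements with zinc finger proteins, was the most abundant at 131, 158, 176, 219.7 and 224 CPM in NS and 381, 425, 357, 295 and 229.9 in S. No S library was as low as any NS library, but the rise ranged from near none in animal 5 to the most in animal 1. The mean rise was 1.87-fold (log2 fold change 0.91 ± 0.20, edgeR adjusted p = 0.0023). With inhibitor it was at 128, 183, 201, 179.7 and 237 CPM in NS_PI and 211, 405, 358, 220.3 and 269.9 in S_PI; these overlapped, and the rise of 0.65 ± 0.19 (adjusted p = 0.0151) lost its call without animal 2 (adjusted p = 0.082) and without animal 3 (adjusted p = 0.0736).

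Trim27, a RING ligase that acts on endosomal actin regulation, was at 37.4, 41.0, 44.0, 39.5 and 39.1 CPM in NS and 69.9, 105, 92.7, 63.1 and 50.2 in S. It was at 30.7, 36.7, 30.1, 28.8 and 34.9 CPM in NS_PI and 87.7, 110.4, 114, 63.3 and 60.7 in S_PI. Stretched and unstretched libraries did not overlap in either comparison, with rises of 1.85-fold (log2 fold change 0.89 ± 0.16, edgeR adjusted p = 0.000541) and 2.66-fold (1.41 ± 0.16, adjusted p = 3.91e-06). Trim72 (MG53), which takes part in resealing torn cell membranes and is best known from muscle, was scarce. It was singled out after its values were seen: its counts in NS were 1, 1, 2, 2 and 5 in animals 1 to 5 and in S 11, 34, 28, 5 and 10. In CPM these were 0.462, 0.493, 1.24, 1.18 and 2.71 in NS, at or below the floor of 3 counts in 4 of 5 libraries, and 5.53, 12.1, 17.3, 5.08 and 6.44 in S. The fitted rise was 2.87 ± 0.47 on the log2 scale (adjusted p = 0.000226), and 3.23 ± 0.47 with inhibitor (adjusted p = 4.99e-05), where 10 counts over NS_PI became 81 over S_PI. Trim72 passed the filter on low counts only through its stretched libraries, so these fits describe it and are no independent support for a rise. Trim65, a ligase of the RNA sensor MDA5, rose in 4 of 5 animals (log2 fold change 0.72 ± 0.19, edgeR adjusted p = 0.00981), a call lost without animal 2 (adjusted p = 0.0622) and without animal 3 (adjusted p = 0.0534); with inhibitor (0.67 ± 0.19, adjusted p = 0.0122) it was lost without animal 2 (adjusted p = 0.0799) and without animal 4 (adjusted p = 0.0607).

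The neighbouring genes Trim5, Trim6 and Trim34, whose promoters are printed above, all fell. Trim5, a restriction factor that in primates binds retroviral capsids, was at 90.0, 79.4, 70.7, 53.02 and 71.1 CPM in animals 1 to 5 in NS and 26.2, 34.3, 36.5, 48.8 and 33.5 in S. With inhibitor it was at 81.0, 93.8, 73.3, 75.7 and 57.2 CPM in NS_PI and 32.7, 34.2, 37.9, 26.7 and 21.1 in S_PI. Every stretched library lay below every unstretched one in both comparisons, and the fold changes were 0.483 (log2 fold change -1.05 ± 0.18, edgeR adjusted p = 0.000367) and 0.401 (-1.32 ± 0.18, adjusted p = 2.66e-05). Trim6, which makes unanchored ubiquitin chains in interferon signalling, was below the 10 CPM used to name genes and was singled out as a neighbour. It was at 24.0, 7.89, 16.7, 7.66 and 8.68 CPM in NS and 2.51, 2.14, 4.33, 4.07 and 6.44 in S, without overlap (log2 fold change -1.76 ± 0.35, edgeR adjusted p = 0.00136). With inhibitor it was at 16.3, 11.7, 7.91, 8.36 and 9.66 and 4.58, 1.83, 2.92, 3.05 and 6.14 CPM, again without overlap (-1.58 ± 0.36, adjusted p = 0.00271).

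Trim34, an interferon-induced ligase that in primates restricts some retroviruses together with Trim5, was at 13.4, 21.7, 6.82, 7.66 and 4.34 CPM in NS and 2.01, 1.43, 1.85, 5.08 and 5.80 in S. Its groups overlapped, since animals 4 and 5 in S were above animal 5 in NS. It fell by 1.88 on the log2 scale (SE 0.47, edgeR adjusted p = 0.00698), a call lost without animal 2 (adjusted p = 0.103). With inhibitor, 11.6, 16.7, 14.2, 6.97 and 9.66 CPM in NS_PI and 1.72, 2.44, 5.83, 0.762 and 1.36 in S_PI did not overlap (-2.21 ± 0.48, adjusted p = 0.00171). Its counts were low, 105 over the NS libraries and 25 over S. The 3 genes are related in sequence, so that reads discarded for aligning to several places could differ between them.

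**Figure D4:**
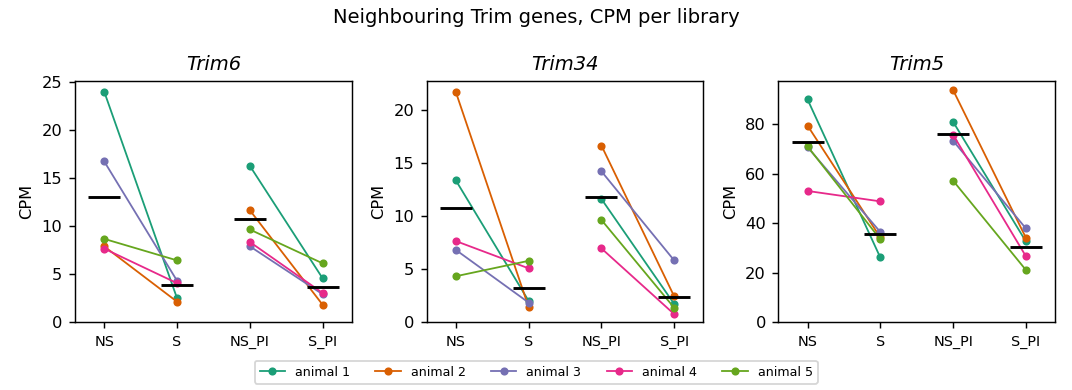
CPM per library of Trim6, Trim34 and Trim5 in the 4 groups; lines join the unstretched and stretched libraries of an animal and black bars are group means. Trim5 averaged 72.8 CPM in NS and 35.8 in S, and 76.2 in NS_PI and 30.5 in S_PI.

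In a list of members linked to interferon, 3 of 6 tested fell in S vs NS (Trim5, Trim26 and Trim34) and 4 of 6 with inhibitor, and 0 rose; of all genes 12.4% and 15.3% were called lower. Trim26, a ligase of nuclear IRF3, fell in both (-0.80 ± 0.25, adjusted p = 0.0227; -0.72 ± 0.26, adjusted p = 0.0379). These calls were lost without animal 2, 3 or 4 in S vs NS (adjusted p = 0.0725, 0.069 and 0.0581) and without animal 1, 2, 4 or 5 with inhibitor (0.0569, 0.171, 0.0716 and 0.17). Trim25, which acts with the RNA sensor RIG-I, was at 47.9 to 67.0 CPM in NS and 35.7 to 66.1 in S and was not called (log2 fold change -0.16 ± 0.16, edgeR adjusted p = 0.515). With inhibitor it fell from 68.0 ± 11.7 CPM to 43.8 ± 8.49 CPM (-0.65 ± 0.16, adjusted p = 0.00526); the difference between these effects was not called (interaction -0.49 ± 0.23, adjusted p = 0.984). Usp18, which removes ISG15, was not called in either (-0.31 ± 0.22, adjusted p = 0.315; -0.46 ± 0.23, adjusted p = 0.134). Among 18 tested interferon-induced genes, which include no member, 0 rose and 6 fell in S vs NS, and their summed level was 340 to 442 CPM in NS and 286 to 393 in S (Ifit1 and Oas2 at 0 in both). With inhibitor 1 rose (Cxcl10, 1.71 ± 0.42, adjusted p = 0.00412) and 7 fell.

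Trim2 and Trim3, related ligases best known in neurons, also fell. Trim2 was at 39.7, 24.7, 21.7, 6.48 and 5.97 CPM in NS and 5.03, 9.28, 6.80, 8.14 and 5.80 in S, a fall in animals 1 to 3, with little change in animal 5 and a higher level in S in animal 4 (log2 fold change -1.45 ± 0.35, edgeR adjusted p = 0.00553). Trim3 was at 23.5, 28.6, 9.30, 8.84 and 10.3 CPM in NS and 10.1, 9.99, 6.80, 4.07 and 5.80 in S, lower in every animal although the groups overlapped (log2 fold change -1.11 ± 0.25, edgeR adjusted p = 0.00302). With inhibitor both fell (-1.46 ± 0.37, adjusted p = 0.00546, and -0.77 ± 0.25, adjusted p = 0.024). The latter call, of Trim3, was lost without animal 2 or 3 (adjusted p = 0.171 and 0.10). Trim35, second in level, fell slightly (log2 fold change -0.37 ± 0.12, edgeR adjusted p = 0.0271); its call was lost without animal 1 (adjusted p = 0.062), without animal 2 (adjusted p = 0.0782), without animal 3 (adjusted p = 0.0539) and without animal 5 (adjusted p = 0.231). Without animal 2, the Trim genes called in S vs NS were 3 higher and 4 lower, in place of 5 and 9, and with inhibitor 2 higher and 5 lower; without animal 3 or 5, 6 were lower in S vs NS.

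F-box proteins, the target-binding parts of SCF ligases, split evenly. The largest rises were in Fbxo34, Fbxo30 and Fbxo33, and stretched libraries lay above unstretched ones without overlap for each of the 3, with and without inhibitor. These genes were picked for their large called rises in S vs NS. The share of all tested genes without overlap was not counted. Fbxo33, which targets the stress protein YB-1, was at 88.2, 99.7, 109, 124 and 96.6 CPM in NS and 277, 181, 152, 254 and 174 in S. In NS_PI it was at 101, 90.9, 100.2, 133 and 114 CPM and in S_PI at 201, 192, 173, 223 and 202. These were rises of 1.98-fold (log2 fold change 0.99 ± 0.14, edgeR adjusted p = 5.83e-05) and 1.85-fold (0.89 ± 0.14, adjusted p = 9.54e-05). Fbxo34, whose targets are little known, was at 27.2, 29.6, 18.0, 20.0 and 16.3 CPM in NS and 47.3, 62.8, 75.4, 38.6 and 41.9 in S (log2 fold change 1.23 ± 0.20, edgeR adjusted p = 0.000195). Its change with inhibitor was 1.35 ± 0.20 (adjusted p = 5e-05), with 17.9 to 24.2 CPM in NS_PI and 38.2 to 77.0 in S_PI.

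Fbxo30 (MUSA1), a ligase of muscle atrophy, was at 19.9, 21.2, 20.5, 20.0 and 22.8 CPM in NS, a narrow range, and 56.3, 50.3, 37.1, 36.6 and 40.6 in S (log2 fold change 1.07 ± 0.19, edgeR adjusted p = 0.000565). In NS_PI it was at 20.5, 15.8, 14.8, 17.2 and 19.3 CPM and in S_PI at 83.7, 34.8, 43.7, 29.7 and 38.2 (1.36 ± 0.20, adjusted p = 4.86e-05). Animal 1 stood well above the others in S_PI. Fbxw11 (βTrCP2), which marks IκB and β-catenin for degradation, rose from 122 ± 19.1 CPM to 171 ± 23.8 CPM (log2 fold change 0.49 ± 0.11, edgeR adjusted p = 0.00245) and by 0.69 ± 0.11 with inhibitor (adjusted p = 9.66e-05).

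Among the F-box genes that fell, Fbxo3, whose target Fbxl2 controls inflammatory signalling, was at 24.9, 32.1, 21.7, 24.2 and 22.2 CPM in NS and 7.54, 18.6, 7.42, 15.3 and 5.80 in S. The groups did not overlap and the level was 0.422 of that in NS (log2 fold change -1.25 ± 0.24, edgeR adjusted p = 0.000787). With inhibitor the fall of 0.74 on the log2 scale (adjusted p = 0.0178) was lost without animal 1 (adjusted p = 0.0736), without animal 2 (adjusted p = 0.0584) and without animal 5 (adjusted p = 0.0516). Fbxo4, a ligase of cyclin D1, was at 54.9, 58.2, 51.5, 40.1 and 36.9 CPM in NS and 27.7, 35.7, 30.9, 25.4 and 32.2 in S, without overlap (log2 fold change -0.66 ± 0.18, edgeR adjusted p = 0.00925), and fell by 0.48 on the log2 scale with inhibitor (adjusted p = 0.0413). This call was lost without animal 1, 2, 3 or 5 (adjusted p = 0.0573, 0.175, 0.186 and 0.146). Fbxw2, the most abundant F-box gene, went from 189.6 ± 48.2 CPM to 136 ± 20.1 CPM with overlapping groups (log2 fold change -0.46 ± 0.13, edgeR adjusted p = 0.0105), a call lost without animal 2 (adjusted p = 0.0702) and without animal 3 (adjusted p = 0.0841). Fbxw17 fell (log2 fold change -0.75 ± 0.21, edgeR adjusted p = 0.0142), a call lost without animal 3 (adjusted p = 0.0999) and without animal 5 (adjusted p = 0.0748); with inhibitor (-0.70 ± 0.21, adjusted p = 0.0141) it was lost without animal 3 (adjusted p = 0.0649) and without animal 5 (adjusted p = 0.076).

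Fbxo16 and Fbxo27, both of low level and singled out after their values were seen, fell in 1 comparison each. Fbxo16 had 73 counts over the NS_PI libraries and 6 over S_PI (6.98, 7.09, 7.91, 6.50 and 8.91 against 0, 1.22, 0.583, 0.762 and 1.36 CPM), without overlap (-3.22 ± 0.56, adjusted p = 0.000244). It passed the filter on low counts through unstretched libraries, where it was higher, so this fit is a description. In S vs NS its counts were 37 and 16 and the difference was not called (-1.04 ± 0.51, adjusted p = 0.141). Fbxo27, a sugar-binding F-box protein, fell in S vs NS (-1.72 ± 0.43, adjusted p = 0.00629; 66 counts in NS and 18 in S) and was not called with inhibitor (-0.73 ± 0.47, adjusted p = 0.247). The interaction was not called for Fbxo16 (-2.18 ± 0.83, adjusted p = 0.984) or Fbxo27 (1.00 ± 0.66, adjusted p = 0.984). In S vs NS 3 Fbx genes, in place of 6, were called lower without animal 3 or 5 and 4 without animal 2; with inhibitor 4, in place of 7, were lower without animal 2 or 3 and 3 without animal 5.

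Of the deubiquitinases of the Usp family, 4 of 34 rose in S vs NS, where 12.5% of all genes did, and 13 of 34 with inhibitor, where 15.2% did. Usp36, a nucleolar enzyme that protects Myc and ribosome assembly factors, rose most, from 38.8, 64.6, 114, 103 and 81.4 CPM in NS to 144, 249.8, 199, 111 and 154 in S. The groups overlapped, since animal 3 in NS lay above animal 4 in S, but every animal rose (log2 fold change 1.12 ± 0.22, edgeR adjusted p = 0.00101). With inhibitor it went from 56.3, 72.1, 64.9, 68.3 and 75.8 CPM in NS_PI to 79.1, 249, 176, 126 and 142 in S_PI, without overlap (1.12 ± 0.22, adjusted p = 0.000676). Usp42, which deubiquitinates p53, rose, with 19.0 to 41.4 CPM in NS and 32.5 to 62.9 in S (log2 fold change 0.80 ± 0.19, edgeR adjusted p = 0.00391) and by 0.78 ± 0.19 with inhibitor (adjusted p = 0.00363). Usp10, which acts on p53 and binds the stress granule protein G3BP, rose (log2 fold change 0.66 ± 0.19, edgeR adjusted p = 0.0163), a call lost without animal 2 (adjusted p = 0.0844) and without animal 5 (adjusted p = 0.0563); with inhibitor it rose by 0.87 ± 0.20 (adjusted p = 0.00222).

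Usp14, which trims ubiquitin chains at the proteasome, was the most abundant Usp gene and rose slightly, from 147 ± 17.0 CPM to 187 ± 38.0 CPM (log2 fold change 0.33 ± 0.11, edgeR adjusted p = 0.0336). That call was lost without animal 1 (adjusted p = 0.0726), without animal 2 (adjusted p = 0.0713), without animal 4 (adjusted p = 0.156) and without animal 5 (adjusted p = 0.0634) and with upper-quartile scaling (adjusted p = 0.0777). With inhibitor its rise was 0.41 ± 0.11 (adjusted p = 0.00875). That rise was not called with library size alone (adjusted p = 0.051), without the filter on low counts (0.0507) and without the replicate block (0.0637). Usp7 (HAUSP), which stabilizes MDM2, was at 44.8, 20.7, 29.8, 23.6 and 20.6 CPM in NS and 30.7, 28.2, 34.0, 32.5 and 36.7 in S, overlapping groups and no call (log2 fold change 0.26 ± 0.19, edgeR adjusted p = 0.331). With inhibitor it was at 34.4, 15.8, 19.0, 21.4 and 29.7 CPM in NS_PI and 65.3, 37.8, 40.2, 35.1 and 38.9 in S_PI, without overlap (0.87 ± 0.19, adjusted p = 0.00145). Usp16, an enzyme of histone H2A, was 0.38 ± 0.14 in S vs NS (adjusted p = 0.0516), a difference called without animal 4 (adjusted p = 0.034), with RLE scaling (0.04), with the filter at a mean of 10 CPM (0.0428) and by DESeq2 (0.0288), and rose with inhibitor (0.61 ± 0.14, adjusted p = 0.00313).

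Usp46, which with WDR proteins acts on signalling phosphatases and receptors, fell. It was at 149, 153, 111, 70.1 and 80.8 CPM in NS and 45.3, 77.8, 64.3, 54.9 and 50.2 in S, lower in every animal with a slight overlap of the groups (log2 fold change -0.92 ± 0.17, edgeR adjusted p = 0.000543). With inhibitor it was at 138, 111, 104, 85.0 and 75.0 CPM in NS_PI and 49.9, 67.1, 57.7, 54.9 and 42.3 in S_PI, without overlap (-0.91 ± 0.17, adjusted p = 0.000402). Usp8, an endosomal enzyme of receptor sorting, fell (log2 fold change -0.62 ± 0.18, edgeR adjusted p = 0.0177), a call lost without animal 1 (adjusted p = 0.0818) and without animal 2 (adjusted p = 0.1); with inhibitor it fell by 0.55 on the log2 scale (adjusted p = 0.0261). That call was lost without animal 2 or 3 (adjusted p = 0.0698 and 0.0803). Usp30, which opposes mitophagy at the outer mitochondrial membrane, fell in S vs NS (-0.53 ± 0.17, adjusted p = 0.0237), lost without animal 2 (adjusted p = 0.0864), without animal 3 (adjusted p = 0.144) and without animal 5 (adjusted p = 0.108), and was not called with inhibitor (adjusted p = 0.0692). It was called there with upper-quartile scaling (adjusted p = 0.0318) and by library size alone (0.0286). Usp40 was not called in S vs NS (adjusted p = 0.132) and fell with inhibitor (-0.60 ± 0.21, adjusted p = 0.0364), a call lost without animal 1 (adjusted p = 0.0995), without animal 2 (adjusted p = 0.115), without animal 3 (adjusted p = 0.0612) and without animal 4 (adjusted p = 0.0728). The number of Usp genes called higher in S vs NS was 7 without animal 1 and 2 without animal 5, and 8 with inhibitor without animal 5.

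**Figure D5:**
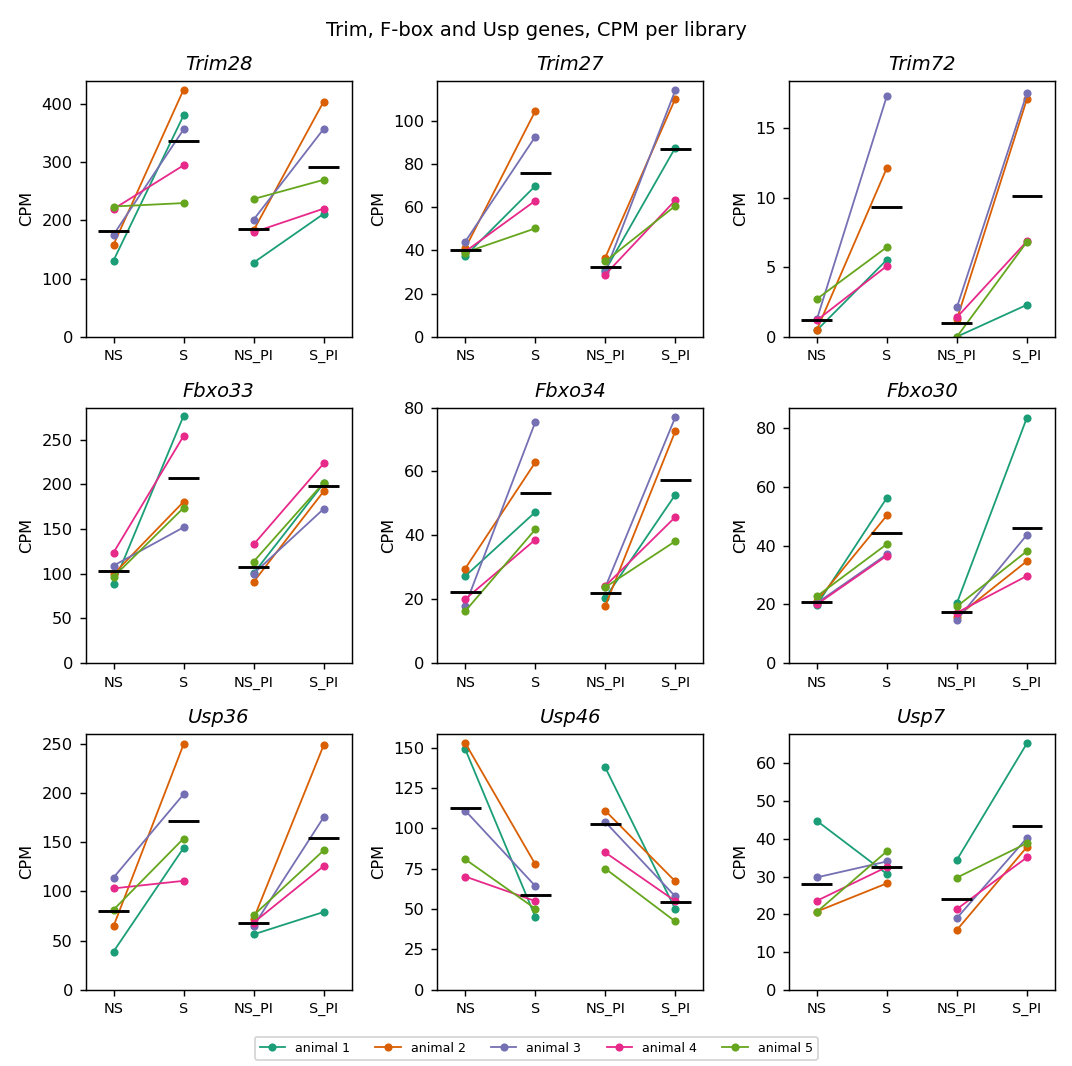
CPM per library of 9 Trim, F-box and Usp genes in the 4 groups; lines join the libraries of an animal and black bars are group means. Trim27, Fbxo33, Fbxo34 and Fbxo30, picked for large called rises in S vs NS, rose without overlap in both comparisons. The share of all tested genes without overlap was not counted. Usp46 fell from 112.8 to 58.5 CPM in S vs NS, and Usp7 was called higher with inhibitor, from 24.1 to 43.5 CPM.

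The inhibitor by itself gave no call among the members. In NS_PI vs NS, in S_PI vs S and in the interaction, the difference between the stretch effects with and without inhibitor, 0 members and 0% of all genes were called with edgeR, and DESeq2 called 0 members in each. At an unadjusted p below 0.05 the members numbered 8 (6.78%), 3 (2.54%) and 5 (4.24%), where 5.47%, 4.09% and 4.15% of all tested genes passed. Among members above 10 CPM the smallest p was in NS_PI vs NS that of Fbxw11, at 122 ± 19.1 CPM in NS and 101 ± 8.78 CPM in NS_PI (-0.26 ± 0.11, edgeR adjusted p = 0.876). In S_PI vs S it was that of Ube2d1, a D class E2, at 78.3 ± 10.5 CPM in S and 63.0 ± 11.8 CPM in S_PI (-0.33 ± 0.15, adjusted p = 0.999). In the interaction it was that of Usp7 (0.61 ± 0.26, adjusted p = 0.984). The larger number of Usp calls with inhibitor is therefore not a called difference between the stretch effects.

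Summed over each family, levels moved little. The log2 ratio of summed CPM, S over NS within an animal, averaged 0.26 ± 0.11 for Ube2 (SD, n = 5, higher in 5 of 5 animals), 0.14 ± 0.17 for Trim (4 of 5), 0.16 ± 0.10 for Fbx (5 of 5) and 0.20 ± 0.07 for Usp (5 of 5). With inhibitor the means were 0.31 ± 0.09, 0.12 ± 0.15, 0.14 ± 0.11 and 0.32 ± 0.05. These are descriptions, with no test.

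The rest of the ubiquitin system, taken from a list of 132 genes, was called in 25 of 117 tested genes in S vs NS (21.4%, 15 rose and 10 fell), against the background of 24.9%. With inhibitor 16 of the 117 rose and 7 fell (19.7%), against a background of 30.5%. Ubb, a polyubiquitin gene, had few counts (4.05 ± 3.33 CPM in NS), and its repeats make its reads hard to place. Uba1, the main E1, was not called (0.40 ± 0.16, adjusted p = 0.0796). The count was 14 in place of 25 without animal 1, 2 or 5.

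Of 16 tested cullin scaffolds and adaptors, 2 rose and 1 fell in S vs NS (18.8%, with a median log2 fold change of -0.02). With inhibitor 3 rose and 0 fell (18.8%). Of all tested genes 24.9% and 30.5% were called in these comparisons. The scaffolds Cul1 and Cul3 rose by 0.55 ± 0.13 (adjusted p = 0.00393) and 0.37 ± 0.12 (adjusted p = 0.0305), and Rbx1, a RING partner of cullins, fell (-0.38 ± 0.12, adjusted p = 0.0211). The other scaffolds tested, Cul2, Cul4a, Cul4b, Cul5 and Cul9, were not called, at -0.77 to 0.23. With inhibitor Cul1 and Cul3 rose (0.77 ± 0.13, adjusted p = 0.00016; 0.74 ± 0.12, adjusted p = 0.00015) and Rbx1 was not called (-0.23 ± 0.12, adjusted p = 0.128; 0.0451 with upper-quartile scaling and 0.0357 with library size alone). In S vs NS the call of Cul3 was lost without animal 2, 3, 4 or 5 (adjusted p = 0.0561, 0.0817, 0.0729 and 0.10) and with library size alone (0.126), and that of Rbx1 without animal 1, 2 or 5 (0.062, 0.0712 and 0.11). Deubiquitinases outside the Usp family were called in 8 of 22 in S vs NS (36.4%, against 24.9% of all genes), where 5 rose and 3 fell. With inhibitor 6 of 22 were called (27.3%, below the 30.5% of all genes), where 5 rose and 1 fell. The largest rises were in Otud4 (log2 fold change 1.28 ± 0.30, edgeR adjusted p = 0.00457; not called without animal 2, adjusted p = 0.0508) and Vcpip1, a partner of the segregase p97 (1.11 ± 0.20, adjusted p = 0.00057). The largest falls were in Stambp, an endosomal enzyme (-1.34 ± 0.25, adjusted p = 0.000832), and Otub2 (-1.21 ± 0.32, adjusted p = 0.00991). With inhibitor Otud4 (1.51 ± 0.30, adjusted p = 0.000835) and Vcpip1 (1.61 ± 0.20, adjusted p = 9.6e-06) rose and Stambp fell (-1.09 ± 0.25, adjusted p = 0.0024). Otub2 was not called with inhibitor (-0.27 ± 0.32, adjusted p = 0.552; interaction 0.94 ± 0.46, adjusted p = 0.984). Among HECT ligases, Nedd4l, which marks the epithelial sodium channel, rose by 0.91 ± 0.28 and Nedd4 fell (-0.48 ± 0.15; adjusted p = 0.022 each). The call of Nedd4l was lost without animal 2, 3 or 4 (adjusted p = 0.0881, 0.128 and 0.0686), and that of Nedd4 without animal 1, 2 or 3 (0.0695, 0.0981 and 0.0767), its log2 fold change being -0.31 without animal 1. With inhibitor Nedd4 was not called (-0.12 ± 0.15, adjusted p = 0.566), and Nedd4l rose (1.01 ± 0.28, adjusted p = 0.0104), a call lost without animal 2 or 3 (0.0895 and 0.0665). Of 36 tested genes that match the symbol pattern of proteasome subunits, 2 rose in S vs NS (Psmd1 and Psmd7) and 3 fell (Psma3, Psmb10 and Psmc3ip, which is no subunit), or 13.9%. With inhibitor 2 rose and 3 fell, again 13.9%.

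In the authors' deposited table of fold changes, whose compared groups are not stated, 173 of the members are listed and 20 have an adjusted p below 0.05. All 20 were called in S vs NS here, and all 20 carry the opposite sign in the authors' deposited table. Its log2 fold changes were -0.518 for Ube2d3 and -0.496 for Fbxw11, against 0.513 and 0.493 here, and -1.71 for Trim72, against 2.865. Since the direction of that ratio is not stated either, the signs cannot be read as opposite effects.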

How the data were processed

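Gene expression was measured by QuantSeq in 20 libraries, 5 animals in each of 4 groups, grouped by their titles. The authors aligned reads to rn6 with STAR, counted them with HTSeq and used DESeq2, per the submitters' processing notes; neither versions nor the annotation is given in the sources used here. Raw counts per gene symbol were deposited by the authors. The authors also deposited a DESeq2 table with a log2 fold change and an adjusted p-value, per the file headers, with no direction stated. HTSeq summary entries were left out of library sizes; records outside genes were 16.2 to 24.5% of all records and records that aligned to several places 35.5 to 57.7%.

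Counts were filtered with filterByExpr, normalized with TMM and fitted in edgeR (glmQLFit, glmQLFTest), 1 model of 20 libraries with terms for group and animal (12 residual degrees of freedom) and Benjamini-Hochberg adjustment over 8320 genes; genes below 0.05 were called. The same animal gave all 4 groups: deviations from group means correlated at a median of 0.476 within an animal (lowest 0.316) and -0.171 between animals, and each of the 20 libraries was most like another of its animal. The pooled residual spread holds any stretch effect that differs between animals. Standard errors are of fitted log2 fold changes.

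Genes of at least 10 CPM were named by rank of fold change or level within a family, plus a fixed set; 5 scarcer ones (Trim6, Trim34, Trim72, Fbxo16 and Fbxo27) were added after their values were seen, and the genes of other ubiquitin lists and Trim26 and Ube2d2 are named as called members of a list. Results of 2 single genes of the ubiquitin system are not reported here, though they enter the counts and sums. Members and lists were chosen with earlier results of these data known. Alternatives were other scaling, filters, fits and leaving out an animal. The scripts were tested on simulated data. Promoters came from RefSeq (173 of 175 members matched by symbol, 142 with a promoter). Tests ran in R 4.3.3 with edgeR 4.0.16 and DESeq2 1.42.0, and figures were drawn with matplotlib 3.10.9 in Python 3.11.15.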

Additional observations from a re-analysis of the deposited data

Results flagged for a closer look

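Of 220 groups of 5 values, 15 held 1 library that stood far from the other 4 by Dixon's criterion, which chance gives in about 1 in 20 groups. In S_PI, animal 1 was the highest for 6 genes. There Cul3 was at 309 CPM (the others 183 to 208), Fbxo30 at 83.7 (29.7 to 43.7), Uba1 at 198 (102 to 121), Ube2k at 653 (366 to 426), Usp16 at 245 (135 to 158) and Usp7 at 65.3 (35.1 to 40.2). Ube2k was also highest in animal 1 in S, at 705 CPM (342 to 386), where Otub2 was lowest at 2.51 (9.89 to 10.9). Nedd4 was highest in animal 1 in NS_PI, at 1210.0 CPM (455 to 627). Animal 2 was highest for Fbxw11 in NS_PI at 117 (95.1 to 100.2) and for Usp42 in NS at 41.4 (19.0 to 25.4). In NS, Usp18 was highest in animal 3 at 24.2 CPM (12.0 to 15.3) and Usp40 in animal 5 at 27.7 (15.3 to 18.5). Vcpip1 was lowest in animal 5, at 11.4 CPM in NS (24.0 to 26.0) and 40.9 in S_PI (57.3 to 63.4).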

How the results depend on the processing

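The number of members called in S vs NS was 40, and 19 without the animal term (no replicate block), 22 when only the compared groups were fitted, and 25 to 39 when 1 animal was left out. Over all genes 1044 higher and 1031 lower became 419 and 399 without the block, and 531 and 517 with only the compared groups. In S_PI vs NS_PI the number of members called was 46, and 26 without the replicate block and 33 to 50 when 1 animal was left out. There 1263 higher and 1271 lower over all genes became 643 and 586 without the block. For the other genes of the ubiquitin system in S vs NS the number was 25, and 11 without the replicate block, 8 with only the compared groups and 14 to 18 when 1 animal was left out. The 19 and 26 members called without the block were among the 40 and 46. Fewer samples enter the fit of only the compared groups; the cause of the other changes was not tested. RLE scaling, DESeq2 and the filters kept each of these counts within 1.5 times. In NS_PI vs NS, S_PI vs S and the interaction, 0 members were called under every alternative run, and the interaction could not be fitted on only the compared groups.

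Of 82 called pairs of a named gene and a comparison, 43 were called under every alternative that gave the gene an adjusted p, and 0 changed sign. Alternatives in which a gene was not tested or had no adjusted p were not counted. Most genes had 13, but Trim72 had 11 in both comparisons, Fbxo27 had 11 in S vs NS, and Trim6 had 12 in both. Of the uncalled, Ube2m turned to -0.03 in S vs NS without animal 1 (-0.03 to 0.38). With inhibitor Otub2 was 0.02 without animal 1 (-0.49 to 0.02), and Ube2d1 turned to -0.03 and -0.05 under upper-quartile scaling and library size alone. Alternatives for summed levels were added after seeing the data: with library size alone the ratio of sums was 0.21 for Ube2 with inhibitor, 0.06 for Fbx and 0.10 for Usp in S vs NS and 0.23 for Usp with inhibitor, and 0.25 for Usp with inhibitor under upper-quartile scaling. Depth limits genes near 3 counts per library: 39 members averaged under 1 CPM in NS. The lowest mean of a tested member was 3.67 CPM and the highest of an untested one 3.84. A scarce gene could pass the filter through the groups where it was high, so the fits of such genes are descriptions.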
